A study of Mus musculus with 6 samples.

Results

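The genes described here are 4 transcriptional regulators on the output side of the circadian clock, Ciart, Bhlhe40, Tef and Nr1d1, together with Cirbp, which encodes a cold-inducible RNA-binding protein. They were chosen by symbol, and all 5 have a value among the 5538 genes of the deposited table. RNA came from the perioculomotor (pIII) midbrain of C57BL/6 mice that carried CreER driven by the Fos promoter and a Cre-dependent eGFP-L10a reporter, a ribosomal protein fused to a fluorescent tag. All mice had 6 hr of sleep deprivation (SD) followed by 3 hr of recovery sleep (RS), and 4-OHT, the drug that activates CreER, was given just before SD or just before RS. The series text names neurons tagged in RS as the population profiled, while the labels of the single libraries give only a group and a number. Immunoprecipitation against eGFP gave the IP libraries (n = 3), and Input (n = 3) is read here as RNA of the same dissection before that step. Each repeat pooled 4 to 5 mice, and the tag reached only cells in which the Fos promoter had been active. Age and clock time of dissection are not given in the labels, and a transcript with a daily rhythm depends on the latter.

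The circadian clock is a feedback loop in which CLOCK and BMAL1 (encoded by Arntl) bind DNA elements called E-boxes and switch on their own repressors. Ciart, also called CHRONO, is a repressor that binds the CLOCK-BMAL1 complex, and Bhlhe40, or DEC1, is a basic helix-loop-helix repressor that occupies E-boxes itself. Nr1d1 encodes the nuclear receptor REV-ERBα, which represses Arntl, and Tef encodes a PAR bZIP activator that binds D-box elements in output genes. Cirbp is made more when temperature drops mildly and is known to influence poly(A) site use of clock transcripts. In rodent cortex, the transcripts of several of these genes are known to respond to sleep loss as well as to the clock.

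Relative to the median gene of the same library, Ciart lay higher in every IP library than in every Input library, and Cirbp lay lower, each by about the same amount in opposite directions. Ciart stood at a log2 difference of 0.63 (SE 0.23) and Cirbp at -0.64 (SE 0.23), values that correspond to 1.54 and 0.64 times the Input level. Neither passed over all genes in limma (adjusted p = 0.649 for both). Bhlhe40, Tef and Nr1d1 had differences of -0.35, -0.29 and -0.14, each with groups that overlapped. Of the 5 genes, 1 thus had all IP values above all Input values, where 6.93% of all genes did, and 1 had all IP values below, where 9.71% did.

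Values are TPM, transcript abundances scaled by length and to a fixed library total. No value of the table falls under 7.0 TPM, so a gene below that level in any library has no row. The median gene stood between 27.7 and 67.2 TPM across libraries, lowest in IP 1 (27.7) and Input 3 (31.1), and these libraries were also the ones least like the rest. IP 1 correlated across genes with the other IP libraries at 0.831 and 0.882, and Input 3 with the other Input libraries at 0.722 and 0.736, while Inputs 1 and 2 correlated at 0.973. Input 3 correlated more with IP 1, 2 and 3 (0.786, 0.817 and 0.851) than with either other Input library. Levels below are therefore also given as log2(TPM + 1) minus the median gene of the same library, the scale on which limma was fitted. On that scale limma called 0% of genes higher and 0% lower at an adjusted p of 0.05 over all genes. At an unadjusted p of 0.05 it counted 198 higher (3.58%) and 213 lower (3.85%), Ciart being among the former and Cirbp among the latter, a status that Ciart kept in 7 of 14 alternative settings and Cirbp in 9.

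**Figure D1:**
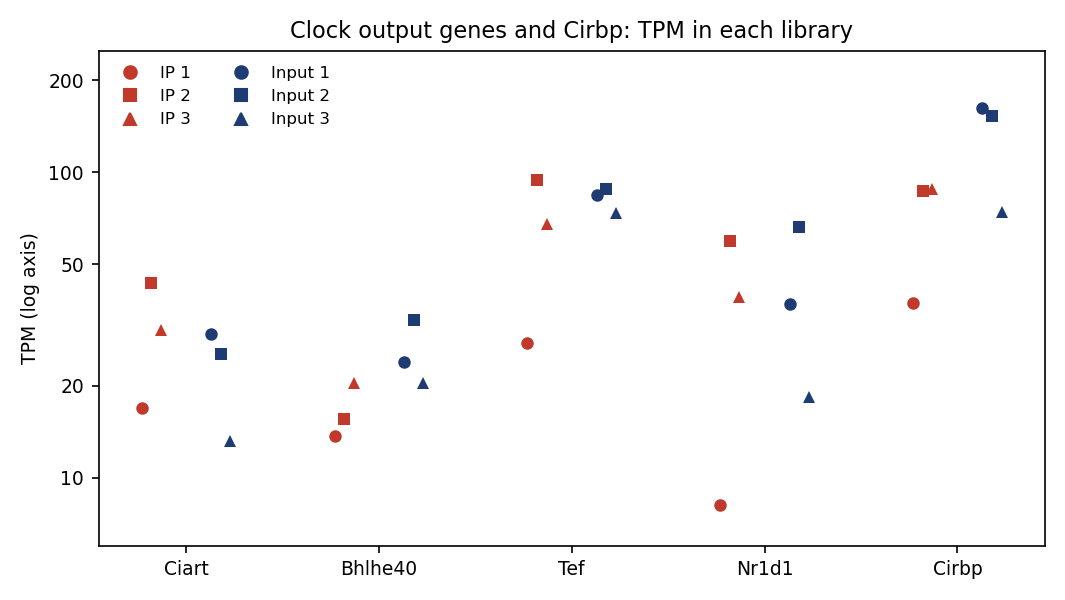
TPM (vertical log axis) of the 5 genes by library, where red marks IP, dark blue marks Input and the symbol gives the replicate number (circle 1, square 2, triangle 3). Cirbp and Tef are the most abundant of the 5 in every library, and the lowest point of all is Nr1d1 in IP 1 at 8.16 TPM.

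Ciart (ENSMUSG00000038550, chromosome 3, 95878503 to 95882251, minus strand, GRCm38) had 16.9, 43.4 and 30.5 TPM in IP 1, 2 and 3 and 29.5, 25.4 and 13.2 TPM in Inputs 1, 2 and 3. In raw TPM the groups overlapped, because IP 1 lay below Inputs 1 and 2. On the scale of the median gene, the values were -0.68, -0.37 and -0.72 in IP and -1.10, -1.37 and -1.18 in Input, so the lowest IP library stood above the highest Input library. The same held for its rank: Ciart lay at percentiles 31.3, 38.3 and 27.9 of all genes in IP and 19.2, 12.7 and 15.7 in Input. The log2 difference of 0.63 had a 95% interval of 0.10 to 1.16. Its spread within groups was small, with a pooled SD of 0.17 log2 units against 0.40 for the median of all genes. Without IP 1 and Input 3 the difference was 0.69 (limma adjusted p = 0.117). Without scaling to the median gene it was 0.38, on a scale where the median of all genes was itself at -0.23, and with Input 3 left out as well it was 0.05 against a median of all genes at -0.60. An antisense gene, C920021L13Rik, spans the whole Ciart locus, and the strand used in counting is not stated. The overlap is between gene spans, exons were not compared, and a part of antisense reads in the Ciart values was not tested. Antisense genes also overlap Bhlhe40 over 306 bases and Tef over 193 bases.

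The promoter of Ciart is printed because E-boxes, the elements that CLOCK and BMAL1 bind, can be read in it. RefSeq promoter windows (GRCm38.p6, 250 bases before to 50 bases after a start) were found for 4 of the 5 genes, in 6 windows. The canonical E-box, CACGTG, occurs 3 times in the Ciart window, starting 116, 58 and 44 bases before the RefSeq transcription start. Among all 32851 windows, 7.15% hold at least 1 such match and 0.088% hold 3 or more. The stretch below lies at chr3:95882259-95882478 on the minus strand and ends 30 bases before the RefSeq start, with E-boxes in capitals.

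Ciart: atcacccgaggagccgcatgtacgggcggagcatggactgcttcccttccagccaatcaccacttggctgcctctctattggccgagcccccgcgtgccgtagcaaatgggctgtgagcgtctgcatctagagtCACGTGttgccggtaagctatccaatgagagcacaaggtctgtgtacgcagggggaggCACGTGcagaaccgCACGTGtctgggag

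Both windows of Tef, which belong to alternative starts, hold 1 E-box each, at 127 and 138 bases before the start. GENCODE starts the Tef gene at 81802421, so both windows lie inside it. The 30 bases around the first E-box overlap an annotated exon of Tef rather than lying upstream of the gene. The windows of Cirbp likewise lie inside the gene as GENCODE annotates it. Nr1d1 holds no canonical E-box in its window but has 1 match to the related E-prime box, spelled CACGTT or, on the other strand, AACGTG, at 28 bases before the start, an element present in 4.68% of windows. The windows of Cirbp held neither element. The D-box core TTATGTAA, the nuclear receptor core element AGGTCA, the cAMP element TGACGTCA and the heat-shock core GAANNTTC had 0 matches on either strand in all 6 windows, against 0.938%, 16.3%, 1.79% and 7.86% of all windows. A match is a description of letters and not of binding. The 30 bases around each E-box or E-prime box, in capitals, are given at chr15:81802534-81802563 and chr15:81811264-81811293 on the plus strand and at chr11:98775388-98775417 on the minus strand.

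Tef, first start: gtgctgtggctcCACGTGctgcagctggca

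Tef, second start: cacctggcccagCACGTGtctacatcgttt

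Nr1d1: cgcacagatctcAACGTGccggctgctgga

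Bhlhe40 (ENSMUSG00000030103, chromosome 6, 108660629 to 108666925, plus strand) had the lowest mean TPM of the 5 in IP and the lowest value in IP 2 and IP 3, while Nr1d1 was lower in IP 1. It had 13.7, 15.6 and 20.4 TPM in IP and 24.0, 32.9 and 20.4 TPM in Input, the IP 3 value being 20.37 and the Input 3 value 20.42. In raw TPM every IP library therefore lay below every Input library, though by that margin only, as for 6.21% of all genes. Relative to the median gene the order was lost, with -0.96, -1.79 and -1.28 in IP and -1.39, -1.01 and -0.58 in Input. The highest of the 6 was Input 3 and the lowest IP 2. The log2 difference was -0.35 (SE 0.32, 95% interval -1.11 to 0.40, limma adjusted p = 0.768), and without IP 2 it was -0.13, without Input 3 -0.15. Bhlhe40 and Ciart, both repressors of E-box transcription, thus had opposite signs. Their ratio within a library needs no scaling between libraries: Ciart had 1.24, 2.79 and 1.5 times the TPM of Bhlhe40 in IP and 1.23, 0.773 and 0.645 times in Input. The groups of this ratio did not overlap, but IP 1 and Input 1 lay next to each other.

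**Figure D2:**
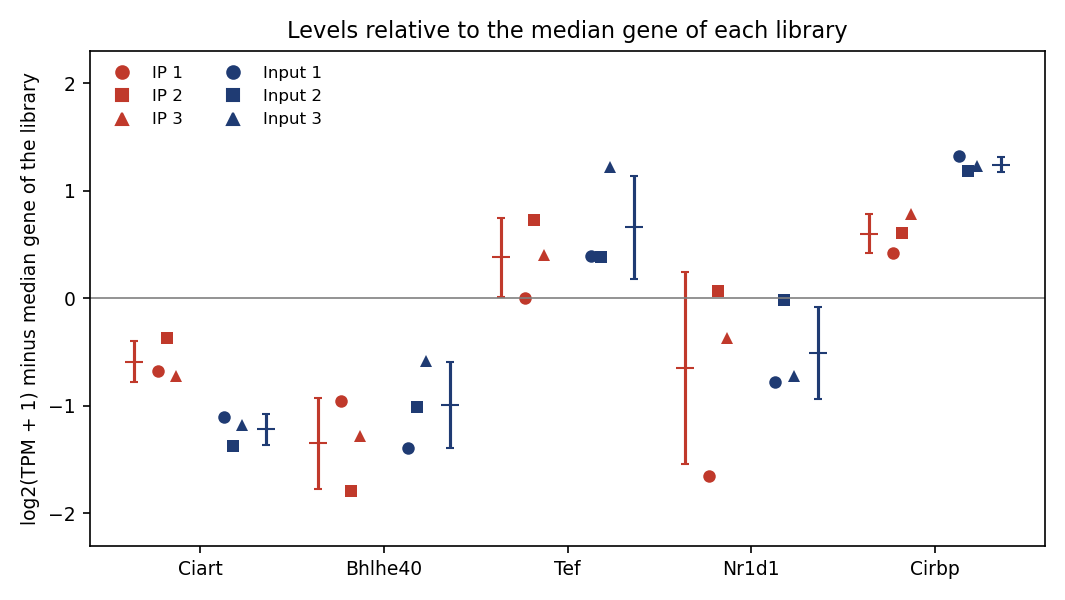
log2(TPM + 1) minus the median gene of the library (vertical axis, with 0 at the median gene), with red points for IP, dark blue points for Input, a symbol for each replicate number (circle 1, square 2, triangle 3) and bars for mean ± SD (n = 3). The groups separate in Ciart, where IP is higher, and in Cirbp, where IP is lower, and overlap in Bhlhe40, Tef and Nr1d1.

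Nr1d1 (ENSMUSG00000020889, chromosome 11, 98767932 to 98775333, minus strand) varied most of the 5. It had 8.16, 59.4 and 39.2 TPM in IP and 37.0, 66.4 and 18.4 TPM in Input, so its highest value was 8.14 times its lowest. The low values were in IP 1 and Input 3, the libraries with the lowest median gene, and IP 2 and Input 2 were the highest of their groups. Relative to the median gene the values were still spread from -1.65 in IP 1 to 0.07 in IP 2, and from -0.78 to -0.02 in Input, a pooled SD of 0.70 log2 units. The log2 difference of -0.14 (SE 0.47, limma adjusted p = 0.927) has a 95% interval of -1.24 to 0.95, and so allows a level in IP from 0.42 to 1.93 times that in Input. It was 0.36 without IP 1, 0.10 without Input 2 and 0.25 without IP 1 and Input 3, so single libraries set its sign. The 3' end of Nr1d1 overlaps that of Thra, a thyroid hormone receptor gene on the opposite strand, over 1075 bases (98767932 to 98769006). Thra had 49.5, 100 and 92.4 TPM in IP and 241.6, 174.7 and 22.7 TPM in Input. As for Nr1d1, IP 1 and Input 3 were the lowest of their groups and IP 2 was the highest IP library. The highest Input library was Input 1 for Thra and Input 2 for Nr1d1. A part of Thra reads in the Nr1d1 values was not tested.

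Tef (ENSMUSG00000022389, chromosome 15, 81802421 to 81826863, plus strand) had 27.6, 94.3 and 67.7 TPM in IP and 84.4, 87.9 and 73.9 TPM in Input. The Input libraries were close to each other (82.1 ± 7.31, SD, n = 3) and the IP libraries were not (63.2 ± 33.6). Relative to the median gene the spread lay elsewhere: Inputs 1 and 2 stood at 0.39 and 0.38 with Input 3 at 1.22, and IP stood at 0.00, 0.73 and 0.40. The log2 difference was -0.29 (SE 0.33, 95% interval -1.07 to 0.49, limma adjusted p = 0.805). It was -0.01 without Input 3, and 0.18 without both IP 1 and Input 3. Dbp, a PAR bZIP paralog of Tef and a strongly rhythmic clock output, had 17.9, 57.3 and 48.8 TPM in IP and 67.0, 91.3 and 7.47 TPM in Input. Tef had between 0.964 and 1.65 times the TPM of Dbp in 5 libraries and 9.89 times in Input 3, where Dbp was close to the lowest value the table holds.

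Cirbp (ENSMUSG00000045193, chromosome 10, 80165985 to 80172786, plus strand) was the most abundant of the 5 in 5 of 6 libraries, with Tef ahead in IP 2. It had 37.2, 87.0 and 88.3 TPM in IP and 162.3, 153.3 and 74.4 TPM in Input, so raw TPM overlapped through Input 3. Scaled to the median gene it stood at 0.42, 0.61 and 0.78 in IP and at 1.32, 1.18 and 1.23 in Input. The 3 Input libraries thus agreed within an SD of 0.07 log2 units, Input 3 included, and all IP libraries lay below them. Cirbp ranked at percentiles 59.5, 67.2 and 69.3 of all genes in IP and 78.0, 76.9 and 78.3 in Input. The 95% interval of its log2 difference was -1.18 to -0.11, a level in IP between 0.44 and 0.93 times that in Input. Without IP 1 and Input 3 the difference was -0.55 (limma adjusted p = 0.120), and with Input 3 left out and no scaling to the median gene it was -1.24. In bulk RNA of this kind, fewer cells with a transcript and less of it per cell cannot be told apart.

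Ratios between the genes inside 1 library do not depend on the library's scale, and they were computed for all 10 pairs. In 3 pairs the groups did not overlap, and each of these pairs holds Ciart, whose separation relative to the median gene is given above. Over all possible gene pairs 16.3% did not overlap. Pairs of 1 member with every other gene did not overlap in 41.8% of cases for Ciart, 44.5% for Cirbp, 16.6% for Bhlhe40, 10.7% for Tef and 2.11% for Nr1d1, so the 3 pairs add no separate result to that of Ciart. Cirbp had 2.2, 2.0 and 2.89 times the TPM of Ciart in IP and 5.50, 6.04 and 5.65 times in Input, the widest gap of the 3. Tef had 1.63, 2.17 and 2.22 times the TPM of Ciart in IP and 2.86, 3.46 and 5.61 times in Input. The Ciart to Bhlhe40 ratio is given above. The other 7 pairs overlapped, among them Nr1d1 to Ciart, at 0.482, 1.37 and 1.28 in IP and 1.26, 2.61 and 1.4 in Input, and Cirbp to Tef, at 1.35, 0.922 and 1.31 in IP and 1.92, 1.74 and 1.01 in Input. With 3 libraries per group an exact two-sided permutation test of a single ratio cannot go below p = 0.1, so the separation is given as a description.

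**Figure D3:**
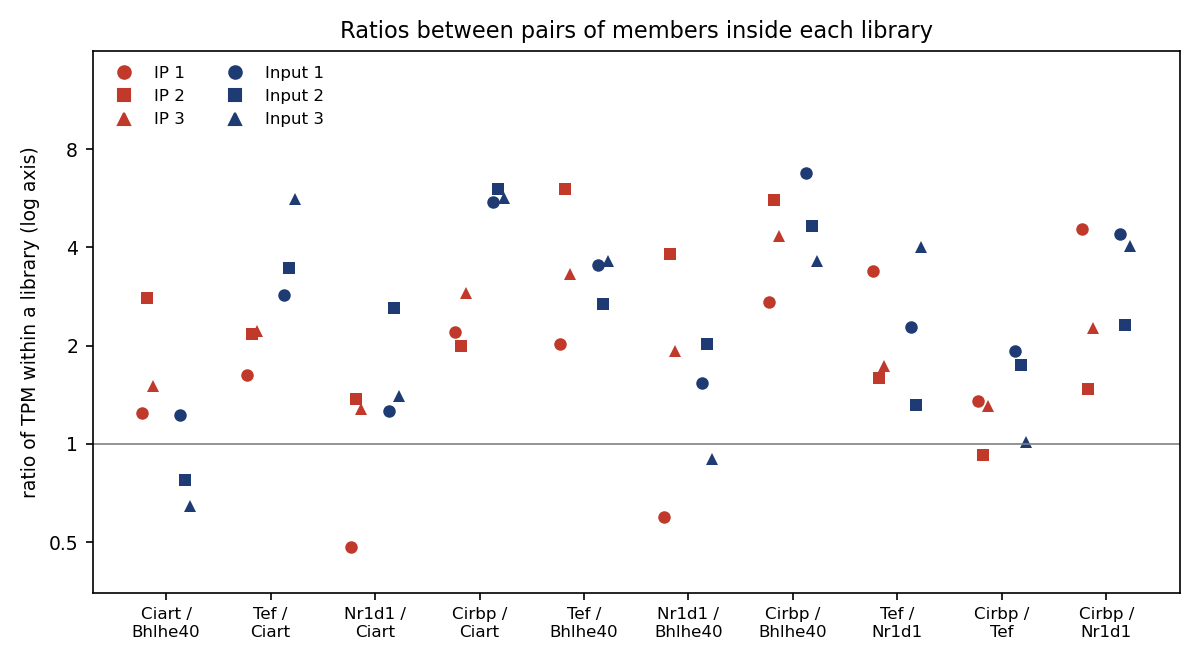
Ratio of TPM between pairs of genes inside each library (vertical log axis, grey line at 1), where red marks IP, dark blue marks Input and the symbol gives the replicate number (circle 1, square 2, triangle 3). The Cirbp to Ciart ratio lies between 2.0 and 2.89 in IP and between 5.50 and 6.04 in Input, and 7 of the 10 pairs overlap.

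In order of level, Cirbp and Tef held the first places in all 6 libraries. Their values overlapped in both groups, at 70.9 ± 29.1 and 63.2 ± 33.6 TPM in IP and 130 ± 48.3 and 82.1 ± 7.31 TPM in Input. Nr1d1, Ciart and Bhlhe40 followed, at 35.6 ± 25.8, 30.3 ± 13.3 and 16.5 ± 3.44 TPM in IP and 40.6 ± 24.2, 22.7 ± 8.49 and 25.8 ± 6.41 TPM in Input, and their ranges overlapped too. Between these sets, Tef and Nr1d1 did not overlap in Input (73.9 to 87.9 against 18.4 to 66.4 TPM) and did in IP. Ciart was above Bhlhe40 in all 3 IP libraries and in Input 1, and below it in Inputs 2 and 3.

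The wider clock was only partly represented, since 25 of the 51 genes in the clock lists had a value. Of the loop activators (Clock, Arntl, Arntl2, Npas2) 0 of 4 had one, and of the repressors 3 of 8: Ciart, Bhlhe40 and Cry2. Cry2, a cryptochrome that inhibits CLOCK-BMAL1, had 30.8, 90.6 and 58.4 TPM in IP and 65.3, 67.5 and 25.2 TPM in Input. Scaled to the median gene, its IP values of 0.15, 0.67 and 0.19 lay above its Input values of 0.02, 0.01 and -0.29, as those of Ciart and of 6.93% of all genes did (log2 difference 0.43, SE 0.25, limma adjusted p = 0.702). Nr1d1 was the only measured gene of 5 in the nuclear receptor loop, and Tef and Dbp were 2 of 4 in the D-box loop. In limma 0 of the 25 passed over all genes. They had a median log2 difference of 0.11, with 17 above 0 and 8 below, where all 5538 genes had a median of 0.02 with 2869 above.

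Genes that modify clock proteins had a value in 13 of 20 cases and a median log2 difference of 0.07, with 0 called. Csnk1d, the casein kinase that phosphorylates PER proteins, had 50.9, 120.6 and 87.8 TPM in IP and 102.6, 97.4 and 83.8 TPM in Input (log2 difference 0.04, SE 0.30). The catalytic subunits of protein phosphatase 1 diverged in sign: Ppp1ca and Ppp1cb stood at -0.47 and -0.78 and Ppp1cc at 0.54. All IP values lay below all Input values for the first pair and above for Ppp1cc on the scale of the median gene. Of all genes, 9.71% lay below in this way and 6.93% above. The 95% intervals of all 3 crossed 0, and in raw TPM the groups of all 3 overlapped. Ncor1, the corepressor that REV-ERBα recruits, had 26.5, 105.2 and 66.7 TPM in IP and 61.9, 79.9 and 13.6 TPM in Input (0.72, SE 0.42), and Hdac3, its deacetylase partner, had a difference of 0.13. Of the clock-controlled outputs 6 of 10 had a value, with a median of 0.15 and 0 called. Usp2, a deubiquitinase, and Pdxk, a pyridoxal kinase under PAR bZIP control, were at 0.16 and 0.04. Leo1, a subunit of the PAF1 complex, had 9.92, 24.5 and 26.8 TPM in IP and 43.1, 46.7 and 26.0 TPM in Input (-0.71, SE 0.24, limma adjusted p = 0.649). It was the 1 of the 6 whose groups did not overlap relative to the median gene, a share near the 16.6% of all genes that did so in either direction.

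**Figure D4:**
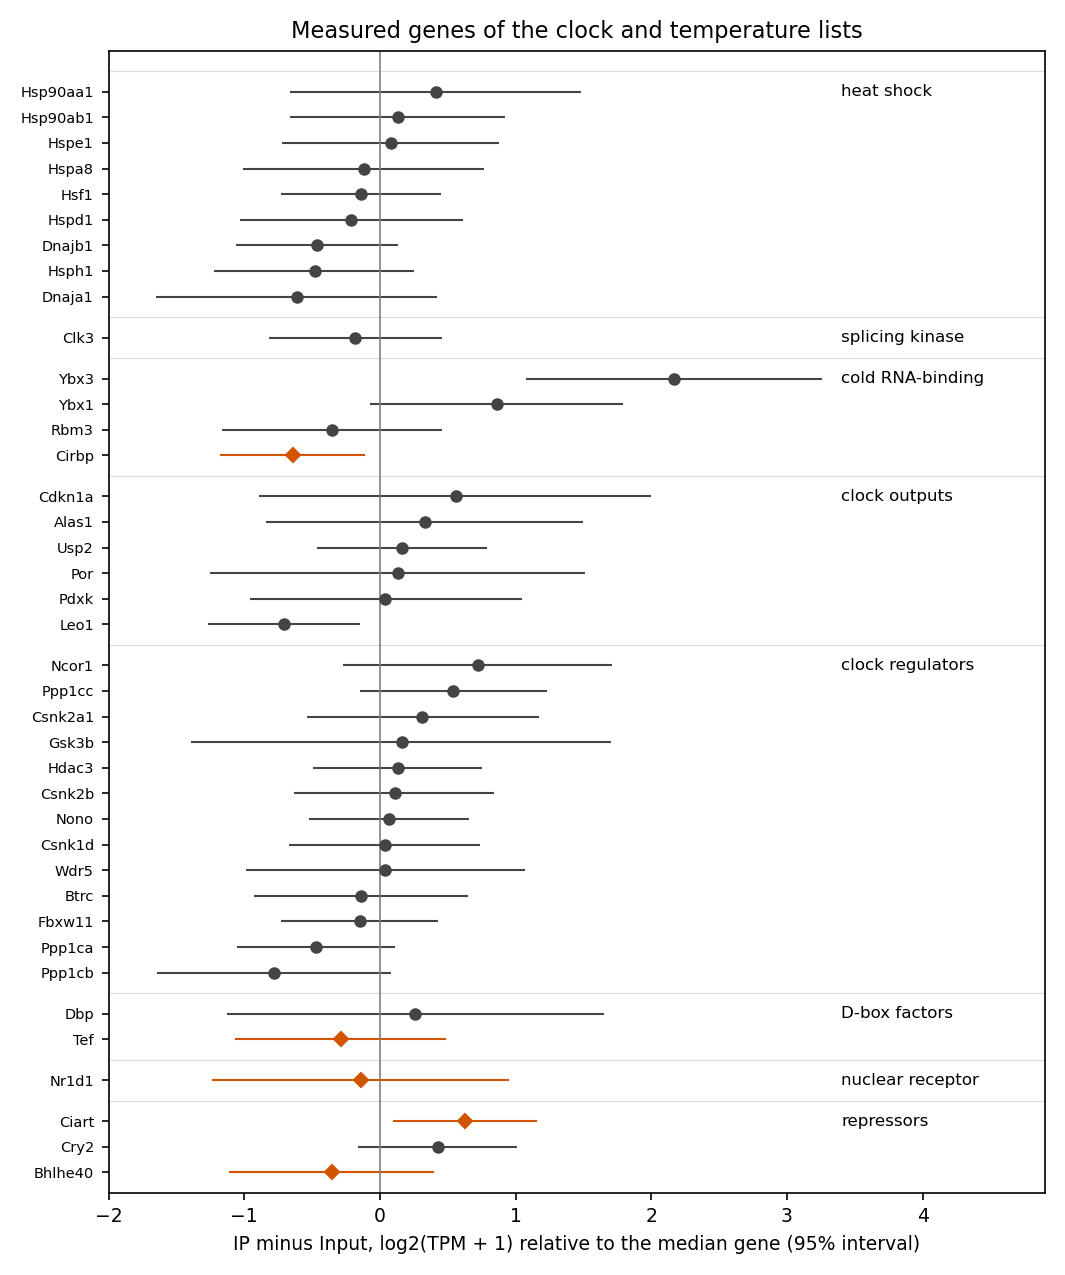
IP minus Input on the log2(TPM + 1) scale relative to the median gene (horizontal axis) with limma's 95% intervals for each measured gene of the clock and temperature lists, grouped by list, with the 5 genes of this report as orange diamonds and all others as grey circles. Ciart, Cirbp, Leo1 and Ybx3 have intervals that do not cross 0, as 3.58% of all genes did above 0 and 3.85% below. After adjustment over all genes, 0 of the listed genes passed.

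Cirbp was set beside the temperature lists, in which it is itself counted. Of their 20 genes 14 had a value, Cirbp included, with a median log2 difference of -0.16 and 0 called in limma. Rbm3, the closest relative of Cirbp and itself cold-induced, had 43.2, 58.8 and 77.3 TPM in IP and 93.4, 86.8 and 85.1 TPM in Input. All IP values of Rbm3 lay below all Input values in raw TPM, as for 6.21% of all genes. Relative to the median gene its groups overlapped (0.62, 0.06 and 0.59 against 0.53, 0.37 and 1.43, log2 difference -0.35, SE 0.35). The ratio of Cirbp to Rbm3 overlapped too, at 0.863, 1.48 and 1.14 in IP and 1.74, 1.77 and 0.874 in Input.

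Ybx3 and Ybx1 encode cold-shock domain proteins, which share with Cirbp an RNA-binding role but not its domain. Ybx3 had 147.2, 124.1 and 116.9 TPM in IP and 29.6, 35.5 and 35.0 TPM in Input. The lowest IP library stood well above the highest Input library in raw TPM, where 1.7% of all genes had all IP above all Input values. Its log2 difference of 2.17 (SE 0.47) did not pass over all genes in limma (adjusted p = 0.649). Without IP 1 and Input 3 it was 2.15 (SE 0.19) and did pass (limma adjusted p = 0.000467). That fit, chosen with earlier results known, sets IP 2 and 3 against Inputs 1 and 2 alone. In it 3.38% of all genes were called higher and 2.89% lower, and Ybx3 was the only called gene of the clock and temperature lists. Ybx1, its paralog, had 108.8, 82.2 and 93.4 TPM in IP and 62.9, 78.1 and 46.4 TPM in Input, with all IP above all Input values, as for 1.7% of all genes. Its groups overlapped relative to the median gene, through IP 2 at 0.53 and Input 3 at 0.57 (log2 difference 0.86, SE 0.40, limma adjusted p = 0.658). Among heat-shock genes 9 of 12 had a value, with a median of -0.14. Hsph1 and Dnajb1, cochaperones of HSP70, were at -0.48 and -0.46. Both had all IP below all Input values relative to the median gene, as for 9.71% of all genes, and overlapping groups in raw TPM. Hspa8 and Hsp90ab1, the abundant constitutive chaperones, were at -0.12 and 0.13, and Hsf1, the heat-shock factor, at -0.14.

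Genes whose profile across the 6 libraries was most like that of each member were found by the root mean square difference of centred log2 values, over 5266 genes. For Ciart they were Ube2o (0.07 log2 units), Tmem229b (0.11) and Apba2 (0.11), the median over all genes being 0.53. For Cirbp they were Atg12, Cryzl1 and Morf4l2 (0.07 each, median 0.50), and for Bhlhe40 they were Sat1 (0.06), Smim7 (0.07) and Polr3c (0.09). Clic4, Impa1 and Tmem167b lay nearest to Tef (0.07, 0.08 and 0.08), and Pttg1ip, Tubgcp2 and Cyp46a1 nearest to Nr1d1 (0.19, 0.22 and 0.24, median 0.69). Among the members, Ciart differed from the other 4 by 0.55 to 0.68, each above its median distance of 0.53. Tef and Cirbp (0.38), Bhlhe40 and Cirbp (0.42) and Bhlhe40 and Tef (0.47) were closer than their medians of 0.50 to 0.52. Nr1d1 differed from Tef by 0.55, Cirbp by 0.58, Ciart by 0.68 and Bhlhe40 by 0.82, against its median of 0.69. With 6 libraries and this many genes, close matches are common, and likeness here is a description of these libraries.

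Marker genes of the cell types in the dissection were compared too. In summed TPM only the cholinergic markers had groups that did not overlap, where 1.7% of single genes had all IP above all Input values. All 5 cholinergic markers (Chat, Slc18a3, Isl1, Slc5a7, Prph) had positive log2 differences, with a summed level of 412 to 643 TPM in IP and 186 to 326 in Input. All 4 measured astrocyte markers of 9, all 4 measured dopaminergic markers of 5 and all 3 measured serotonergic markers of 4 had negative differences. Their summed levels were 100 to 286 against 124 to 600 TPM for astrocytes, 79.3 to 473 against 122 to 1473 TPM for dopaminergic neurons and 176 to 1051 against 152 to 2572 TPM for serotonergic neurons. Input 3 lay apart from Inputs 1 and 2 here. Relative to the median gene, the median astrocyte marker stood at 1.29, 1.38 and -0.59 in Inputs 1, 2 and 3. The median dopaminergic marker stood at 1.43, 1.39 and -0.04, and the serotonergic one at 2.94, 2.23 and -0.57. In IP these medians stood at -0.39 to 0.26, -1.18 to 0.67 and 0.35 to 1.72. Cirbp stood at 1.32, 1.18 and 1.23 in Inputs 1, 2 and 3 and at 0.42, 0.61 and 0.78 in IP. Whether it followed any of these markers was not tested. Of the oligodendrocyte markers 4 of 6 measured were negative, at 365 to 4437 TPM in IP and 536 to 4877 in Input, and of the neuronal markers 4 of 8, at 3646 to 8438 and 4644 to 7555 TPM. The 2 measured endothelial markers of 6 had opposite signs, with sums of 334 to 979 TPM in IP and 446 to 760 in Input. Relative to the median gene, their median stood at 2.08, 2.94 and 1.71 in IP and at 1.19, 1.25 and 1.62 in Input, without overlap. The median cholinergic marker, at 0.6, 1.0 and 0.61 in IP and -0.87, -0.88 and 0.41 in Input, did not overlap either. On that scale 6.93% of single genes lay above in this way. The 1 measured microglial marker of 8 was negative, at 12 to 15.7 and 15.3 to 35.6 TPM. In limma 0 of these markers passed. The part of cell composition in the differences of the 5 genes was not tested.

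**Figure D5:**
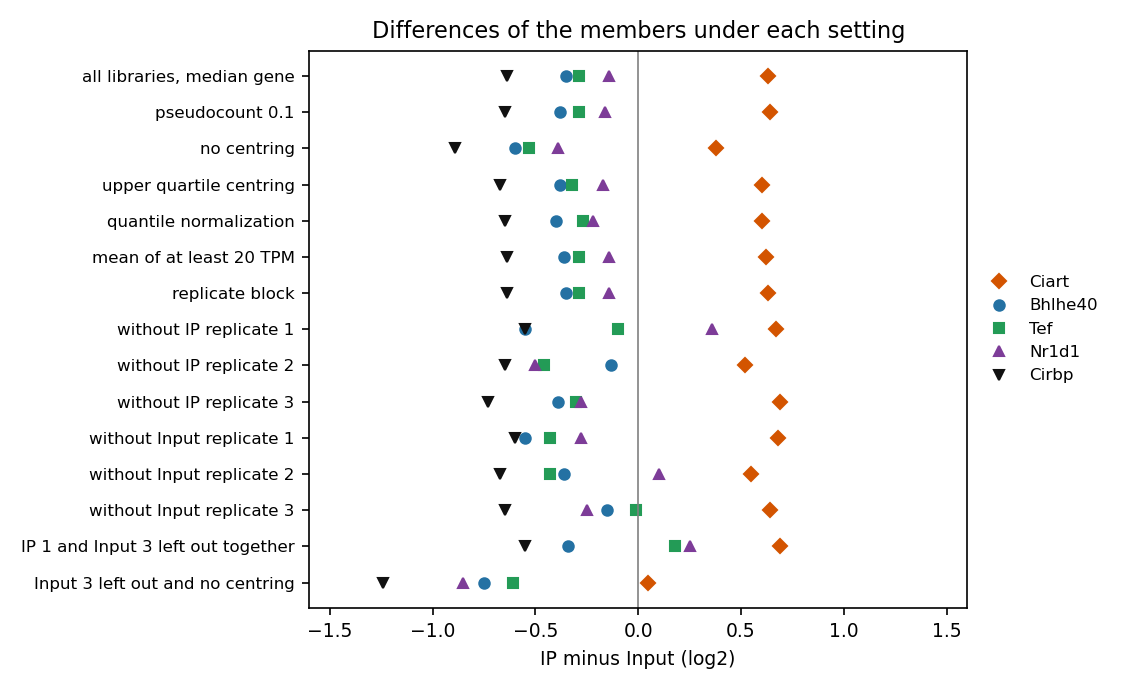
IP minus Input (horizontal axis, log2) of each of the 5 genes under each processing setting (rows), with 1 symbol per gene. Ciart stays above 0 and Cirbp and Bhlhe40 below 0 in all 15 rows, while Nr1d1 crosses 0 in 3 rows and Tef in 1.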

How the data were processed

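RNA sequencing libraries from IP (n = 3) and Input (n = 3) of pIII tissue were compared. Each came from a pool of 4 to 5 mice per the labels' protocols. The main fit treats all libraries as independent, and its p-values measure the spread between libraries within a group. If IP and Input of a repeat share a pool, that fit leaves the sharing out. The deposited values are TPM, made by the authors and marked as TPM per the file headers. The submitters' processing notes list mm10, RSEM and DESeq without versions or roles, with the aligner not given in the sources used here. TPM keep no read depth, so no counting error or detection limit can be given. The 6 columns of values were all used.

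TPM were transformed to log2(TPM + 1), the median gene of each library was subtracted, and IP was compared with Input in limma 3.58.1 (R 4.3.3, lmFit and eBayes with trend, group as the only term) over all 5538 genes with Benjamini-Hochberg adjustment and a threshold of 0.05, two-sided. A filter at a mean of 1 TPM left out 0 genes. This scale understates differences of genes with low TPM. The genes, the 9 lists of clock and temperature genes and the markers were chosen with earlier results of these data known. Genes given with values of their own are the 5 members, measured genes of these lists and the 3 genes with the most similar profile to each member, leaving out predicted and mitochondrial genes and pseudogenes. Thra has values as an overlapping gene, while an antisense gene, cell type markers and list genes with no value are named only, and some results are left out of the lists and their counts. Coordinates come from the GENCODE annotation of GRCm38, the assembly that mm10 denotes, and sequences from RefSeq (GRCm38.p6). Alternatives were a pseudocount of 0.1, no centring, upper quartile centring, quantile normalization, a mean of at least 20 TPM, a replicate block and the omission of libraries.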

Additional observations from a re-analysis of the deposited data

How the results depend on the processing

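Across 14 alternatives Ciart kept a positive difference (0.05 to 0.69) and Cirbp and Bhlhe40 negative ones (-1.24 to -0.55 and -0.75 to -0.13), and 0 of the 5 genes passed in limma in any of them (lowest adjusted p 0.117, Ciart without IP 1 and Input 3). Nr1d1 ranged from -0.50 to 0.36 with 1 library left out, being positive without IP 1 (0.36) or without Input 2 (0.10). Without IP 1 and Input 3 together, Nr1d1 stood at 0.25 and Tef at 0.18. In that fit 187 genes were called higher and 160 lower, with 1 from the temperature lists and 0 from the clock lists. With 1 library left out, 0 to 16 genes were called higher and 0 to 1 lower, all of them without Input 3. With Input 3 left out and no centring, a count added after the data were seen, 19 were called higher and 2 lower. All other settings called 0 genes. Without centring, where the median of all genes was -0.23, the differences were 0.38 (Ciart), -0.60 (Bhlhe40), -0.53 (Tef), -0.39 (Nr1d1) and -0.89 (Cirbp). Deviations of same-numbered IP and Input libraries from their group means correlated across genes at -0.099, 0.249 and -0.167. Libraries of unlike number correlated at -0.249 to 0.189. With so few libraries, of which IP 1 and Input 3 lie apart, these values cannot tell whether the libraries were paired. With the replicate block the differences were the same (Ciart 0.63, SE 0.31) and 0 genes were called. Ciart and Cirbp both lost their place among the genes at an unadjusted limma p of 0.05 with the block, with no centring and without IP 2, Input 1 or Input 2. Ciart also lost it with upper quartile centring and with Input 3 left out and no centring. The alternatives without IP 1 and Input 3 together were chosen with earlier results known. Read depth, which limits low values such as Nr1d1 in IP 1, is unknown.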
